A study of Drosophila melanogaster with 2 samples.

Results

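The 30 genes described here are fly genes of neural fate and of synapses, taken as a fixed list: elav, nSyb, Syt1, brp, Rdl, para, Appl, fne, scrt, pros, ase, sc, ac, l(1)sc, wor, dpn, repo, SoxN, D, nerfin-1, futsch, Syx1A, cac, Sh, Fas2, Dscam1, Syn, ChAT, VGlut and Gad1. They are 30 of the 13945 protein-coding genes on the chromosome arms, and all 30 symbols were found in the gene annotation. Binding of CG14965-eGFP, the product of gene CG14965 with green fluorescent protein at its C terminus, was mapped by chromatin immunoprecipitation with sequencing (ChIP-seq) with an antibody to GFP. The chromatin came from whole Drosophila melanogaster embryos of both sexes aged 0 to 24 h, from a stable transgenic line, sonicated to 200 to 800 bp. The series holds 1 group of 2 biological replicates, numbered 3 and 4, so it makes no comparison between conditions. The labels read here do not state which promoter drives the fusion. No control library and no untagged line was analysed here, and whole embryos mix all tissues, so a peak cannot be assigned to neurons or to any other cell type.

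In the fly embryo, proneural transcription factors of the achaete-scute complex give cells the competence to become neural precursors. Neuroblasts then divide under factors such as Asense, Worniu and Deadpan, and Prospero moves into the nucleus of their daughters. Differentiated neurons express the RNA-binding protein Elav, ion channels and the machinery that loads, docks and releases synaptic vesicles, whereas glia express Repo.

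For each gene, regions were taken whose summit lay in the gene body or within 5 kb of it. The deposited data give 1302 optimal peaks, which passed a threshold on how well ranks repeat between replicates (irreproducible discovery rate, IDR), and 30000 pooled candidate regions, most of them below that threshold. The optimal peaks are the 1302 pooled regions of highest signal value. The signal value is a score with no stated scale, and serves here only for the order and description of regions inside 1 list. It ran from 69.8 to 8276 in the optimal peaks (median 101) and started at 19.5 in the candidate list. The lists carry no read numbers, and the sequencing depth of each library is unknown. All counts and intervals below cover the counting of regions or genes alone. Coordinates are on dm6 and start at 1.

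In all, 6 of the 30 genes had an optimal peak in this window: elav, Syn, Syx1A, ChAT, Gad1 and pros. That is 20%, against 17.7% of all protein-coding genes, a share close to that of the genome. At least 1 candidate region was present for 27 of the 30 (90%), against 92.5% of protein-coding genes. The 6 genes hold 9 peaks, and 1 of these, in an intron of Syn, stands far above the others. The next strongest are a pair that flanks the distal start site of elav. The only gene with a peak at its own promoter was elav. The peaks of Syx1A, ChAT and Gad1 lay in or beside other genes.

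The sequences at the summits of the Syn and elav peaks are shown because 2 of them contain the core of the element bound by CTCF, an insulator protein. The core was searched as AGATGGCG, AGAGGGCG, AGGTGGCG and AGGGGGCG on both strands within 50 bp of each summit. Capitals mark this core and the letters GAGAG or their complement CTCTC, which were also searched on both strands. Each line gives the plus strand of dm6 over 101 bp, from the RefSeq Release 6 genome.
Syn intron, chr3R:10203698-10203798: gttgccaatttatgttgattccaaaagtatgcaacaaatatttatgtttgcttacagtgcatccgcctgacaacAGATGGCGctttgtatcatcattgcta
elav intron, chrX:522584-522684: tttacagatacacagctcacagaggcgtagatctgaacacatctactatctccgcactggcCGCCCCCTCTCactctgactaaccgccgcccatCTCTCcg
elav upstream, chrX:523514-523614: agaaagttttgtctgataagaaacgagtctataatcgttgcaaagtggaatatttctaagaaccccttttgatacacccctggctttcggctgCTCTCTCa

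The Syn sequence holds AGATGGCG, whose centre lies 27.5 bp from the summit. In the elav intron the core is CGCCCCCT, the complement of AGGGGGCG, centred 14.5 bp from the summit and overlapping a CTCTC. The elav sequence upstream of the start site has no core and an overlapping pair of CTCTC words. Among the 9 peaks, the core lay within 50 bp of the summit in 2 (22.2%), against 7.99% of all 1302 peaks. The share was 1.44% in the 28405 candidate regions that overlap no peak. Earlier work on these data had already shown this core in peaks, so these counts are description and no independent support. The difference in shares rests on 2 peaks and was not tested. GAGAG was present at 2 of the 9, both at elav, against 12.2% of all peaks and 12.97% of the other candidate regions. The E-boxes CAGCTG and CAGGTG, letters that proneural proteins are known to bind, were at none of the 9. By the approximate rule that a count of 0 allows up to 3, which is no Wilson interval, the share could be up to 33.3%. These E-boxes were within 50 bp of 8.99% of all peak summits and of 10.7% of those of the other candidate regions. Over the whole peak, the Syn peak and the intronic elav peak held 2 copies of the core each, and the peak 3′ of Syx1A held 1. The GC content over the 101 bp had a median of 37.6% in the 9 peaks (range 26.7 to 55.4%), against 36.6% in all peaks and 45.5% in the other candidate regions.

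Syn encodes synapsin, a phosphoprotein on the surface of synaptic vesicles. Its peak (3R 10203475 to 10203990) had a signal value of 1671 in the pooled list, 978 in replicate 3 and 705 in replicate 4. It ranked 26 of 1302 in the pooled list, 26 of 30000 in replicate 3 and 27 of 30000 in replicate 4, so both embryo samples placed it among their highest regions. It was 1 of 36 peaks with a signal value above 1000. The replicate summits lay 3 bp and 11 bp from the pooled summit, for replicates 3 and 4.

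The Syn peak was far from any start site. Its summit was 13059 bp downstream of the only annotated transcription start site (TSS) of Syn (FBgn0004575, 3R 10190689 to 10222442, plus strand), in an intron. The gene Timp (FBgn0025879, 3R 10203875 to 10213007, minus strand), which encodes a tissue inhibitor of metalloproteinases, lies inside Syn on the opposite strand. The summit was 127 bp beyond the 3′ end of Timp and 9259 bp from its TSS, the nearest of any gene. The peak overlaps the last 116 bp of Timp, and the lists do not assign it to either gene.

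The Syn window held 11 further candidate regions, none of them a peak. The highest had a signal value of 59.9 (rank 1699) and lay 20 bp from the TSS of the neighbouring CG12814. The promoter of Syn had a region of 42.1 in the pooled list (rank 3890), with its summit 224 bp upstream of the TSS. At that promoter the signal value was 22.0 in replicate 3 (rank 5576) and 14.9 in replicate 4 (rank 19336). The promoter region was therefore far weaker than the intronic peak in all 3 lists.

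**Figure D1:**
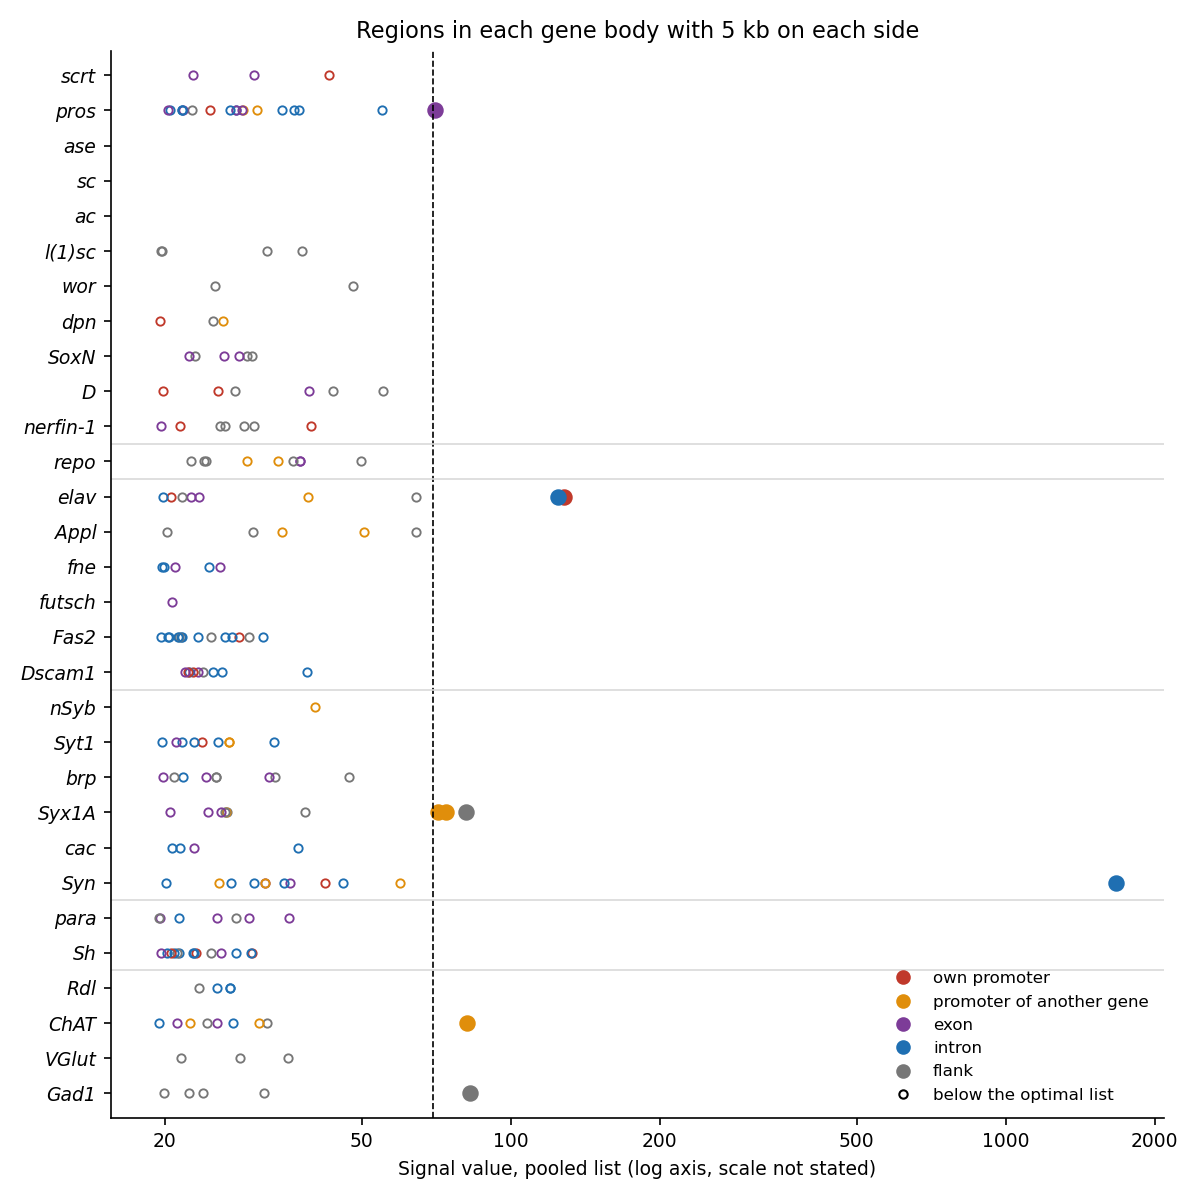
Signal value in the pooled list (log axis, a score of no stated scale) of every candidate region whose summit lies in the body of each of the 30 genes or within 5 kb, with genes ordered by role between grey lines: proneural and neuroblast factors, the glial factor, neuronal RNA-binding, cytoskeletal and surface proteins, vesicle release, excitability, transmitters and receptors. Filled points right of the dashed line (69.8, the lowest optimal peak) are optimal peaks, and the Syn intron at 1671 lies far right of the next, elav at 128.

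elav encodes the RNA-binding protein whose presence marks post-mitotic neurons. A peak upstream of the gene (X 523346 to 523781) had a signal value of 128 in the pooled list, 79.1 in replicate 3 and 49.6 in replicate 4, with ranks of 429, 387 and 532. Its summit lay 338 bp upstream of the distal TSS of elav (FBgn0260400, X 509235 to 523226, minus strand). The second peak (X 522416 to 522851) had 125 in the pooled list, 64.8 in replicate 3 and 50.9 in replicate 4, with ranks of 447, 592 and 501. It lay 592 bp downstream of the same TSS, in an intron. The summits were 930 bp apart with the TSS between them, and in either replicate both ranked among the 1302 highest regions.

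Other transcripts cross this place. The noncoding gene lncRNA:enrr starts at the same base as elav, and the gene arg (FBgn0023535, X 509435 to 528028), which encodes arginase, runs through it on the plus strand. Both elav summits lie inside an intron of arg, 14129 and 13199 bp from its 5′ end for the upstream and the intronic peak. Because the promoter rule takes 500 bp, the upstream peak counts as a promoter peak and the intronic one does not. With 250 bp neither would, and no gene of the 30 would have a promoter peak, against 3.59% of protein-coding genes.

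A weaker region (X 526480 to 526915) had a signal value of 64.3 and ranked 1505, just below the optimal list. It falls in the windows of both elav and its neighbour Appl, the gene of the fly amyloid precursor protein, and was the highest region of Appl. It had 41.8 in replicate 3 (rank 1337) and 19.9 in replicate 4 (rank 7728). Its summit lay in an intron of arg, 3803 bp upstream of Appl.

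Syx1A encodes syntaxin 1A, the plasma membrane SNARE protein of vesicle fusion, and held 3 peaks in its window, none with a summit in the gene body. That is the most of the 30 genes only if an overlapping pair, described below, is counted as separate peaks. Syx1A (FBgn0013343, 3R 24101600 to 24105763, minus strand) lies wholly inside eIF4EHP (FBgn0053100, 3R 24063077 to 24108960, minus strand), which encodes a cap-binding repressor of translation. The highest peak (3R 24098945 to 24099380) had a signal value of 81.3 in the pooled list, 46.3 in replicate 3 and 34.6 in replicate 4. It lay 2437 bp beyond the 3′ end of Syx1A, in an intron of eIF4EHP, and ranked 980, 1112 and 1119 in these lists.

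The other 2 Syx1A peaks overlap each other between the divergent promoters of eIF4EHP and CG18428. The first (3R 24108859 to 24109294) had 74.2 in the pooled list, 28.0 in replicate 3 and 45.8 in replicate 4, and lay 117 bp from the TSS of eIF4EHP. The second (3R 24109087 to 24109522) had 71.4, 30.3 and 28.4 in the same lists, and lay 31 bp from the TSS of CG18428. They were 3314 and 3542 bp upstream of the TSS of Syx1A. Replicate ranks were uneven here: the first ranked 3094 in replicate 3 and 609 in replicate 4, and the second 2602 and 2021. Counted as 1 region, they leave 8 distinct peak regions for the 30 genes. Syx1A itself had no pooled region within 500 bp of its TSS. The list of replicate 3 held one there, with 15.9 (rank 12229), and that of replicate 4 held none.

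ChAT and Gad1 encode the enzymes that make acetylcholine and GABA. The ChAT peak (3R 18719688 to 18720123) had a signal value of 81.6 in the pooled list, 42.8 in replicate 3 and 37.3 in replicate 4, with ranks of 976, 1291 and 933. It lay in an intron of ChAT (FBgn0000303, 3R 18705501 to 18732344, plus strand), 14405 bp from its TSS. ChAT shares its TSS with VAChT, the vesicular acetylcholine transporter gene nested in it, and the summit was 990 bp beyond the 3′ end of VAChT. It was also 283 bp from the TSS of lncRNA:CR46265, inside an exon of that noncoding gene.

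The Gad1 peak (3L 4070383 to 4070818) had a signal value of 83.0 in the pooled list, 51.3 in replicate 3 and 36.3 in replicate 4, with ranks of 944, 919 and 1008. It lay 3476 bp beyond the 3′ end of Gad1 (FBgn0004516, 3L 4074077 to 4088744, minus strand). The summit was in an intron of wit (FBgn0024179), a BMP receptor gene known for its role at the neuromuscular junction, 1116 bp from the 5′ end of wit and 320 bp beyond the 3′ end of the nested CG32259. In the pooled list no region lay within 500 bp of a TSS of ChAT, Gad1, VGlut or Rdl, the 4 transmitter and receptor genes. The list of replicate 4 held such a promoter region for Rdl, at rank 26878 of 30000. Among all protein-coding genes 42.5% had one in the pooled list, and the difference over 4 genes was not tested. A peak was present in the windows of 2 of these 4 genes, ChAT and Gad1, against 17.7% of protein-coding genes, which was not tested either. VGlut, the vesicular glutamate transporter gene, had its highest region at 35.5 (rank 6259), and Rdl, a GABA receptor gene, at 27.1 (rank 13634).

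pros encodes a homeodomain factor of neural daughter cells and was the only 1 of 11 genes of proneural and neuroblast factors with a peak. Of all protein-coding genes 17.7% had a peak, and 14.2% of those under 5 kb, the length class of most of the 11. pros itself is 79.1 kb long, and 36.7% of protein-coding genes of 20 kb or more had a peak. Counts by role are small and were not tested. The pros peak (3R 11392795 to 11393230) had a signal value of 70.3 in the pooled list, 39.2 in replicate 3 and 32.4 in replicate 4. Its pooled rank of 1288 is near the end of the optimal list, whose lowest signal value was 69.8. It ranked 1518 in replicate 3 and 1347 in replicate 4, so in neither list was it among the 1302 highest. The summit lay in sequence annotated as 3′ UTR of pros (FBgn0004595, 3R 11328480 to 11407627, plus strand), 20225 bp from the nearest TSS of the gene.

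**Figure D2:**
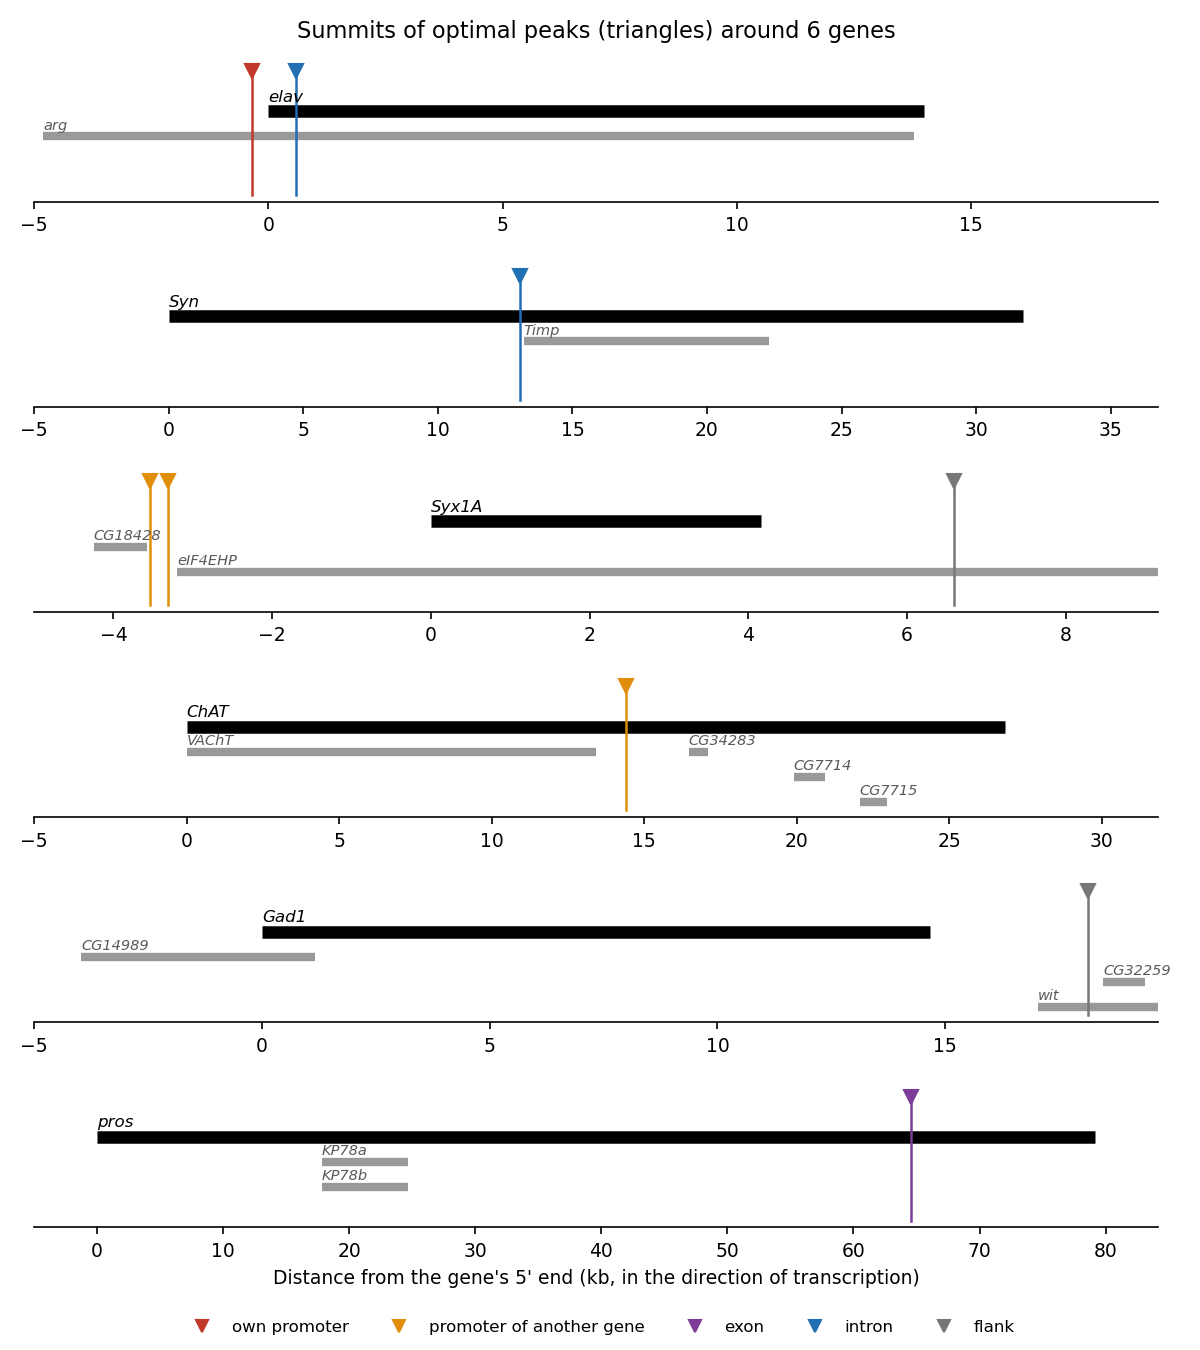
Summits of the 9 optimal peaks (triangles, coloured by place) around the 6 genes that hold them, drawn to scale against distance from the 5′ end of each gene in kb in the direction of transcription. Black bars are the 6 genes and grey bars other protein-coding genes that overlap them or lie beside a peak, cut at 5 kb beyond the gene, so the Syn summit is seen at the 3′ end of Timp and the elav summits on either side of the elav start site.

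The remaining neuroblast and proneural genes had weak regions or none. No candidate region fell in the windows of ac, sc and ase, which encode proneural factors of the achaete-scute complex and, for ase, its neuroblast member. The lists of single replicates held few regions there: ac and sc had none in replicate 3 and 1 each in replicate 4, and ase had 2 in replicate 3 and none in replicate 4. Their neighbour l(1)sc had 4 candidate regions, the highest 37.9 (rank 5162). These 4 genes lie inside the annotated span of CG32816, and for all of them the nearest peak was the same, with a signal value of 268 (rank 127). It lay 30.8 kb from ase, 83.2 kb from l(1)sc, 96.5 kb from sc and 123 kb from ac, and its nearest TSS was that of CG17896.

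Among the others of this role, D, a Sox-family gene also called Dichaete, had the highest region, 55.3 (rank 1991), in the 3′ flank. That region had 40.7 in replicate 3 (rank 1417) and 13.6 in replicate 4 (rank 24163), so the replicates ranked it very differently. wor, a Snail-family neuroblast gene, had 48.0 (rank 2742), also in its flank. scrt, a Snail-family gene of neurons, had 43.0 (rank 3674), and nerfin-1, a zinc finger gene that keeps neurons differentiated, had 39.5 (rank 4620), both at their own promoters. SoxN, a Sox gene of the early neuroectoderm, had 30.04 (rank 10170), and dpn, a bHLH-O gene of neuroblast self-renewal, had 26.3 (rank 14823). The nearest peak to dpn was 19.4 kb away and was the 18th strongest of the list by rank, with a signal value of 2225. The glial gene repo had 9 candidate regions and no peak; the highest, 49.97 (rank 2485), lay in an intron of its neighbour 14-3-3epsilon.

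Among the 6 genes of neuronal surface, cytoskeletal and RNA-binding proteins, only elav had a peak. The share was 17.7% of all protein-coding genes. It was 24.3% of those of 5 to 20 kb, the class of elav, and 36.7% of those of 20 kb or more, the class of the others. The difference was not tested. Dscam1, a surface receptor gene known for its many splice forms, had its highest region at 38.8 (rank 4851), and Fas2, a cell adhesion gene, at 31.7 (rank 8766), both in introns. fne, a paralogue of elav, had 25.9 (rank 15350) in an exon, and its nearest peak was 163 kb away, the farthest of the 30. futsch, which encodes a microtubule-associated protein related to MAP1B, had 1 candidate region in its body of 44.6 kb and the flanks, with a signal value of 20.7 (rank 26413), the lowest best value among the genes with any region.

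Of the 6 genes of vesicle release and of the active zone, 2 had a peak, Syn and Syx1A. The share was 17.7% of all protein-coding genes, and the difference was not tested. Within this role nSyb, the vesicle SNARE gene, had 1 region of 40.3 (rank 4371), at the promoter of another gene. brp, which encodes the active zone scaffold Bruchpilot, had 47.1 (rank 2890) in its flank. Its nearest peak, with a signal value of 503 (rank 65), lay 5.65 kb from the gene, just outside the window, and 257 bp from the TSS of CG1888. cac, the presynaptic calcium channel gene, had 37.2 (rank 5476), and Syt1, the calcium sensor of release, had 33.2 (rank 7608), both in introns. Neither channel gene of excitability had a peak, a count too small to set against the 36.7% of protein-coding genes of 20 kb or more. The highest region of para, the sodium channel gene, had 35.6 (rank 6212). That of Sh, the Shaker potassium channel gene, had 30 (rank 10214).

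Over the 21 genes with candidate regions but no peak, the highest region had a signal value between 20.7 and 64.3, with a median of 37.2. The 3 strongest were Appl, D and repo, and the 3 weakest futsch, fne and dpn. Distance from the gene body to the nearest peak had a median of 18.5 kb in the 30 genes and 27.7 kb in all protein-coding genes. Longer gene bodies shorten this distance, and the 30 genes are longer (median 14.3 kb against 2.17 kb). It was not compared within length classes and was not tested.

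Promoters of the 30 genes were covered about as often as those of other genes in the pooled list. A candidate region lay within 500 bp of an own TSS in 11 of 30 genes (36.7%), against 42.5% of protein-coding genes. A peak did so in 1 of 30 (3.33%), against 4.9%. In replicate 3 a region lay at an own promoter in 14 of the 30, against 47.4% of protein-coding genes, and in replicate 4 in 7, against 34.3%. Both replicate lists had one in 5 genes (16.7%), namely elav, scrt, nerfin-1, Sh and Syn, against 24.5%. These shares over the 30 genes were not tested. The median of the strongest promoter region was 28.3 in the 11 genes and 31.7 in the 5932 protein-coding genes that had one.

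By role, 5 of 11 proneural and neuroblast genes had a promoter region in the pooled list, led by scrt. So did 3 of 6 genes of neuronal RNA-binding, cytoskeletal and surface proteins, led by elav, and 2 of 6 genes of vesicle release, led by Syn. Sh was the only 1 of the 2 excitability genes with one, and repo had none. The share over all protein-coding genes was 42.5%, and these small counts by role were not tested.

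The 30 genes are long, and long genes offer more room for a peak. Their bodies had a median length of 14.3 kb (range 0.917 to 139 kb), against 2.17 kb in all protein-coding genes. Among genes of 20 kb or more, 3 of 14 had a peak (21.4%), against 36.7% of protein-coding genes of that length. Between 5 and 20 kb the count was 2 of 5 (40%), against 24.3%. Under 5 kb it was 1 of 11 (9.09%), against 14.2%. The counts are small and go in both directions. With the gene body alone, 4 of the 30 genes had a peak (13.3%), against 4.66% of protein-coding genes. In genes of 20 kb or more this count was 3 of 14 (21.4%), against 25.5% of protein-coding genes of that length; it was 1 of 5 between 5 and 20 kb, against 10.5%, and 0 of 11 under 5 kb, against 1.26%.

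**Figure D3:**
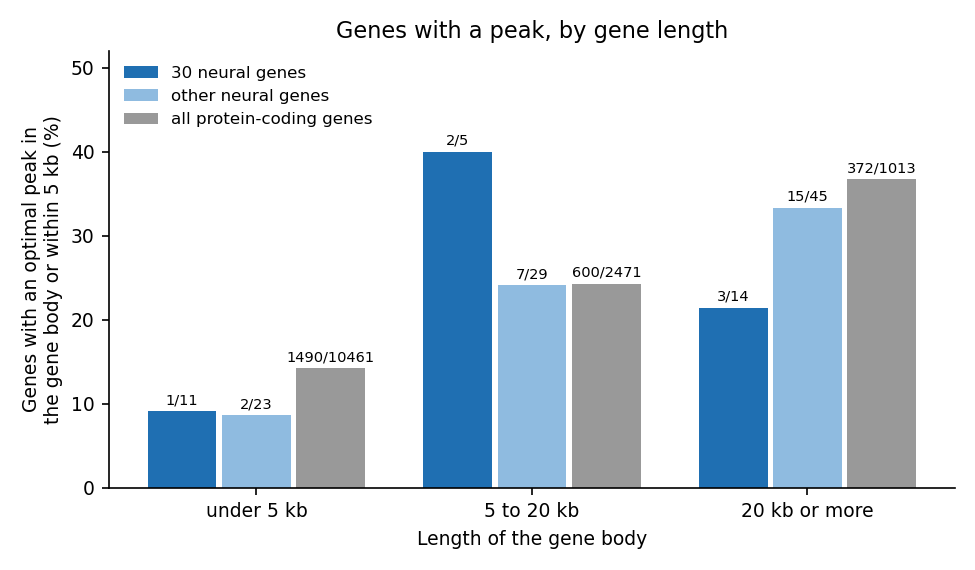
Percent of genes with an optimal peak in the gene body or within 5 kb, by length of the gene body, in the 30 neural genes, the 97 other neural genes and all protein-coding genes, with the counts above each bar. The bars of the 30 genes are below those of all protein-coding genes in the shortest and the longest class and above them between 5 and 20 kb, where they rest on 5 genes.

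The windows of the 30 genes, merged, covered 1.16 Mb and held 187 candidate regions, of which 9 were peaks (4.81%, 95% Wilson interval 2.55 to 8.89%). Over the chromosome arms 1302 of 30000 were peaks, which is 4.34% and lies inside that interval. The interval counts each region as separate although some overlap each other, so it may be too narrow, and it is no test. Candidate regions were sparser in the windows, at 16.2 per 100 kb against 22.4 per 100 kb over the arms. Peaks were at 7.78 per Mb against 9.73 per Mb. The merged windows of all protein-coding genes held 24.8 candidate regions per 100 kb and 11.0 peaks per Mb. Those of the other neural genes described below held 19.5 candidate regions per 100 kb and 6.93 peaks per Mb. Densities below those of all protein-coding genes were therefore not particular to the 30 genes. Neither density was tested. By place, 1 of 17 regions at own promoters was a peak, 3 of 20 at promoters of other genes, 1 of 39 in exons, 2 of 56 in introns and 2 of 55 in flanks. The median signal value was 23.8 at own promoters, 31.5 at promoters of other genes, 24.4 in exons, 24.0 in introns and 26.5 in flanks. No values by place over all candidate regions stand beside these counts and medians. They therefore describe these windows only, and were not tested.

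Both replicates ranked most of the 9 peaks high. Of the 9, 6 overlapped 1 of the 1302 highest regions in replicate 3, 8 did so in replicate 4 and 6 in both (66.7%), against 64.1% of all 1302 peaks. The 6 are the Syn peak, both elav peaks, the Syx1A peak in the eIF4EHP intron, and the ChAT and Gad1 peaks. The 8 in replicate 4 include both peaks of the overlapping Syx1A pair, which touch the same region of rank 609. For the second peak of that pair, the replicate 4 region with the nearest summit ranked 2021, outside the 1302 highest. All 9 overlapped a region among the 5000 highest of each replicate. The peaks were picked on both replicates pooled, so this overlap is not independent of the choice. Taking the 1302 highest regions from replicate 3, 5 of the 30 genes had one in the window, against 17.6% of protein-coding genes, and taking them from replicate 4, 5 did, against 18.1%. In both lists these were elav, Syx1A, Syn, ChAT and Gad1, and pros was absent.

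**Figure D4:**
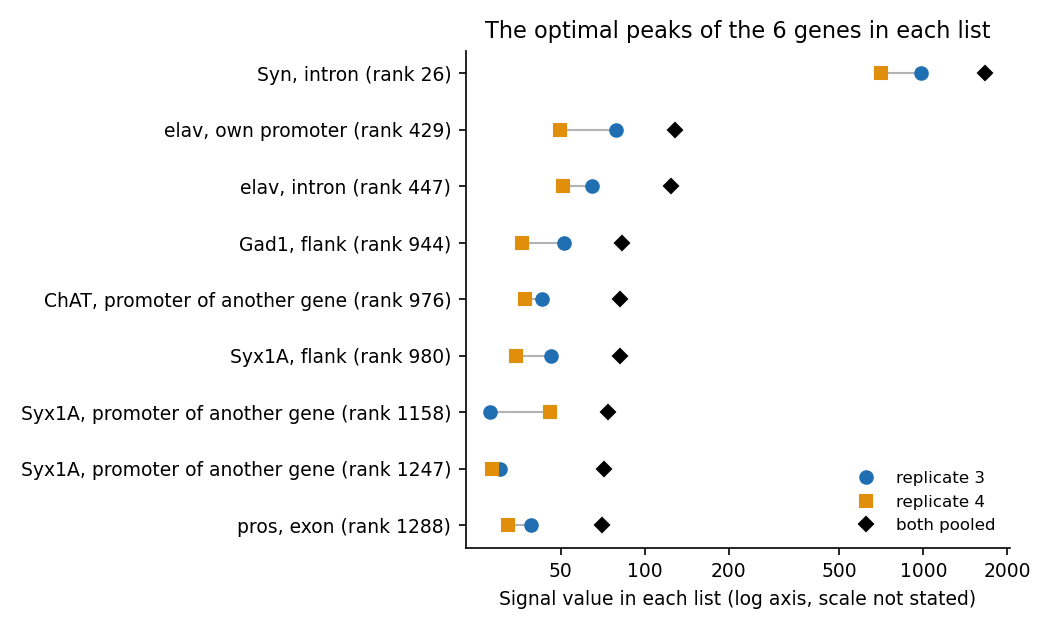
Signal value (log axis, a score of no stated scale) of the 9 optimal peaks in replicate 3 (circles), replicate 4 (squares) and the pooled list (diamonds), ordered by pooled rank. The lists have no common scale, so only the order within a list can be read, and the Syn intron is the highest of the 9 in all 3 lists.

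A list of other neural genes, among them temporal, glial, transmitter, channel and adhesion genes, was counted in the same way. Of 100 symbols 97 were matched and used, and 24 of the 97 genes had a peak in the window (24.7%), against 17.7% of all protein-coding genes. By length the counts were 2 of 23 under 5 kb (8.70%, against 14.2% of protein-coding genes) and 7 of 29 between 5 and 20 kb (24.1%, against 24.3%). At 20 kb or more the count was 15 of 45 (33.3%, against 36.7%). In no length class was the share above that of all protein-coding genes. A peak at an own promoter was present in 4, moody, lola, Ten-a and Nrx-1, which is 4.12%, against 4.9% of protein-coding genes.

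The 5 strongest peaks of that list all lay away from promoters. Ca-alpha1T, a T-type calcium channel gene, had 1440 in an intron (rank 28; 873 in replicate 3 and 581 in replicate 4), 82402 bp from its nearest TSS. Sox21b, a Sox gene, had 998 in its flank (616 and 379 in replicates 3 and 4), and ftz, a pair-rule gene also active in the nervous system, had 650 (394 and 259). numb, a cell fate determinant of asymmetric division, had 287 (196 and 93.1), and nub, a POU-domain gene, had 254 (166 and 99.8). The peak in the ChAT window is counted here too, for VAChT.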

How the data were processed

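Per the labels' text files, the authors deposited narrowPeak lists derived from the alignments of each replicate and of both pooled, with a control library that was not used here. No aligner, caller or version is named in what was read here. Only the dm6 lists were used. The deposited signal value is a score of no stated scale, and the deposited summit offset gave the position. Gene bodies and start sites came from the Ensembl release 115 annotation (BDGP6), with transposons left out, and sequence from the RefSeq Release 6 genome; all regions and genes fit its chromosome lengths. A summit within 500 bp of an own TSS was called own promoter, then promoter of another gene, exon, intron or flank. Intervals are 95% Wilson intervals (scipy 1.17.1) and cover counting alone. Replicate values are those of the overlapping region with the nearest summit; at promoters, the strongest region.

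No test was run: there is 1 group, and shares of genes are given beside all protein-coding genes. The 30 genes and all lists were chosen with earlier results of these data known. The rule for naming took every peak in a window, the highest region of genes without one, and the 5 strongest peaks of the other neural genes. The window search was tested on simulated summits.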

Additional observations from a re-analysis of the deposited data

How the results depend on the processing

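No paired analysis was possible because all samples belong to 1 group. With flanks of 10 kb, 10 genes (33.3%, against 26.9% of protein-coding genes) held 14 peaks, with nSyb, brp, Appl and futsch added. With flanks of 2 kb there were 5 peaks and with the gene body alone 4, in elav, pros, Syn and ChAT both times (13.3%, against 11.5% and 4.66%). The stronger part of the optimal list, its upper 651 peaks, left 2 genes, elav and Syn (6.67%, against 9.75%), with 3 peaks. Within 250 bp of a TSS 0 genes had a promoter peak, against 3.59%, and 7 had a candidate region, against 28.2%. Leaving out 1 replicate gave 5 genes, 6 to 7 peaks, 1 gene with a promoter peak, 7 to 14 genes with a promoter region and 3.33 to 3.37% of candidate regions as peaks. pros was the gene lost with either list. Merging overlapping peaks (8), leaving out peaks at promoters of other genes (6 peaks in 5 genes) and the split of the gene body counts by length were chosen after seeing the data. Depth is unknown, so no region can be called absent.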
